A study of Homo sapiens and Mus musculus with 25 samples.

Results

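The regions described here are 63698 distal peaks of dimethylated lysine 4 of histone H3 (H3K4me2) in K562 cells, 29.7% of the 214276 peaks in the authors' corrected H3K4me2 list on chromosomes 1 to 22 and X. They were chosen on that list and its 2 companions. Both ends of a region lay more than 5 kb from every transcription start site (TSS) of a GENCODE protein-coding transcript, the region was at least 500 bases wide, it overlapped a corrected H3K4me1 peak, and it overlapped no corrected H3K4me3 peak. Of the 214276 peaks, 184977 met the distance rule, 74859 were also wide enough, 66192 of these touched a corrected H3K4me1 peak, and 2494 of these touched a corrected H3K4me3 peak and were set aside. The rule looks at the ends of a region, so 351 wide regions hold a protein-coding TSS inside.

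K562 is an established human line grown from a chronic myeloid leukaemia, with features of early red cell and megakaryocyte precursors. Its chromatin was profiled by internally calibrated ChIP-seq, in which barcoded nucleosomes of known modification are added before the immunoprecipitation, and each of 17 antibodies against methylated H3K4 gave 1 peak list on hg38. All libraries came from untreated wild-type K562 cells, and the labels name no separate cultures, so an antibody stands in for a replicate. The authors derived the 3 corrected lists from 4 Abcam antibodies (ab8895, ab7766, ab12209 and ab8580). The other 13 antibodies, 4 against H3K4me1, 3 against H3K4me2 and 6 against H3K4me3, took no part in choosing the regions and carry the comparisons below. They share 1 input library (AR16) with the Abcam antibodies, except that the H3K4me3 antibodies of Diagenode and EpiGentek were run beside an AR17 input. Read depth behind the lists is unknown.

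Enhancers are stretches of DNA, often far from the gene they act on, where transcription factors bind and raise transcription. Their nucleosomes typically carry H3K4me1 and H3K4me2, written by the KMT2C and KMT2D methyltransferases, while H3K4me3 is typical of active and poised promoters. In red cell precursors the factors GATA1, TAL1, KLF1 and NF-E2 bind enhancers of the globin and haem genes, GATA factors at the letters AGATAA or TGATAA and NF-E2 at TGANTCA with flanking bases.

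Windows of 300 bases are shown from 2 regions that differ in H3K4me3, with a peak in 4 of the 6 H3K4me3 lists outside the rule at the first and in 0 at the second. They are read from the plus strand of hg38, with the GATA letters AGATAA or TGATAA and the NF-E2 letters TGANTCA in capitals on either strand. The first comes from the region that is nearest to the TSS of GATA2, which encodes a GATA factor of early blood cells, though it lies 78.4 kb from GATA2 and 52.0 kb from DNAJB8, its own nearest gene. It is the window of that region that holds the most such letters, a choice made after values were seen. The second is the central window of the region within 100 kb of the TSS of TFRC, the transferrin receptor gene, that has a peak in all 7 H3K4me1 and H3K4me2 lists outside the rule and in none of the 6 H3K4me3 lists. Neither window overlaps a GENCODE exon.
Near DNAJB8, chr3:128411700-128411999, outside genes: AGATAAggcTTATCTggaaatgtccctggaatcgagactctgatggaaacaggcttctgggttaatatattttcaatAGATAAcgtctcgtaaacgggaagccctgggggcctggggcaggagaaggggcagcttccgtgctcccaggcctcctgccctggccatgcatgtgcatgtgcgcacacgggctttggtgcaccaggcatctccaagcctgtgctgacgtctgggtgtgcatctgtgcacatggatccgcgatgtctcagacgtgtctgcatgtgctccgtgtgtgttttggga
Near ZDHHC19, chr3:196175009-196175308, outside genes: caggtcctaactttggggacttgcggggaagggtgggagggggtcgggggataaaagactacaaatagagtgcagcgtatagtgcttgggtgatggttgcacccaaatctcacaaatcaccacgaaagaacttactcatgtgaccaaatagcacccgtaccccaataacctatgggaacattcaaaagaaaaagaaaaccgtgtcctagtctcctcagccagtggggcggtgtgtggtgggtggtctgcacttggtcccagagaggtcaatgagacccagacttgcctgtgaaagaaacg
The DNAJB8 window holds 3 GATA runs, and the ZDHHC19 window holds 0 runs of either kind. The first window was picked for its letters, and the second is the centre of a region picked by its place and its peaks, so the counts cannot be compared. A run of letters in a window is a description and not a bound site.

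The 63698 regions had a median width of 1368 bases, with quartiles of 770 and 3008 bases, and a median authors' value of 11.2, which is read as a calibrated density of H3K4me2. Just inside the width limit, 7023 regions of 500 to under 600 bases had a median value of 9.11, and just outside it 10368 otherwise similar peaks of 400 to under 500 bases had 9.07. Regions whose nearest end lay over 5 and up to 6 kb from a TSS numbered 1818 with a median value of 12.6, and 1972 otherwise similar peaks over 4 and up to 5 kb away had 13.0. Together the regions span 180.1 Mb. One of them, chr16:38280479-46380957, is 8100 kb long, has a value of 0.000231, runs over the unsequenced centromere of chromosome 16 and holds a peak in 1 of the 13 lists. The next widest is 77.9 kb, and the total without the longest is 172.0 Mb. Most regions (66.8%, 42544 regions) lie wholly inside 1 corrected H3K4me1 peak, and such H3K4me1 peaks have a median width of 8472 bases and mostly hold a single region (69.7%).

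The first comparison asked whether antibodies that the rule did not use place the same marks at the regions. The H3K4me1 antibodies had a peak in nearly all of them. Active Motif 39635 covered at least 1 base of 98.9% of the regions (background 53.9%), Cell Signaling Technologies 5326 BF of 98.1% (50.4%), EpiGentek A-4031-050 of 94.5% (48.4%) and Thermo Fisher 710795 of 86.7% (36.5%). The background is the share of 1893737 distal tiles of 1368 bases that hold a peak of the same list. All 4 antibodies thus lay well above their own background, and 53504 regions had a peak in all 4 lists. The H3K4me2 antibodies differed more from each other. Cell Signaling Technologies 9725 had a peak in 99.6% of the regions (background 59.2%), Thermo Fisher 710796 in 86.1% (30.5%) and EMD Millipore 05-1338 in 35.9% (6.14%). Many regions are wider than the tiles. In the 23796 regions of 500 to under 1000 bases EMD Millipore 05-1338 had a peak in 5.39%, below its background. Cell Signaling Technologies 9725 (99.1%) and Thermo Fisher 710796 (67.5%) stayed above theirs. EMD Millipore 05-1338 has the shortest H3K4me2 list and was amplified over 12 cycles, against 8 for the other H3K4me2 antibodies, and the part of this in its low share was not tested.

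H3K4me3 peaks were fewer but not absent. EMD Millipore 07-473 had a peak in 50.5% of the regions (background 12.8%), EMD Millipore 05-745R in 14.4% (1.44%), Abclonal A2357 in 8.74% (0.97%), Diagenode C15410003 in 5.41% (0.525%), EpiGentek A-4033-050 in 4.20% (0.387%) and Thermo Fisher PA5-40086 in 3.12% (0.325%). EMD Millipore 07-473 stands apart from the other 5, which lie between 3.12% and 14.4%. Over all widths every antibody lay above its own background, but many regions are wider than the tiles. In the 23796 regions of 500 to under 1000 bases, narrower than the tiles, only EMD Millipore 07-473 did (19.0%), and the other 5 lay between 0.0378% and 1.22%, each below its background. In the 16491 regions of 1000 to under 2000 bases all 6 lay above it, between 0.807% and 48.3%. In all, 31491 regions (49.4%) had a peak in none of the 6 lists, 22638 had one only in that of EMD Millipore 07-473, 5795 (9.10%) had one in at least 3, and 1395 (2.19%) had one in all 6. Without H3K4me3 is therefore a property of the corrected list, and only in part of the other antibodies. Of the 2 Abcam H3K4me3 antibodies that the correction used, ab12209 had a peak in 2.71% of the regions (background 0.266%) and ab8580 in 94.0% (44%), values that the choice of regions used.

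**Figure D1:**
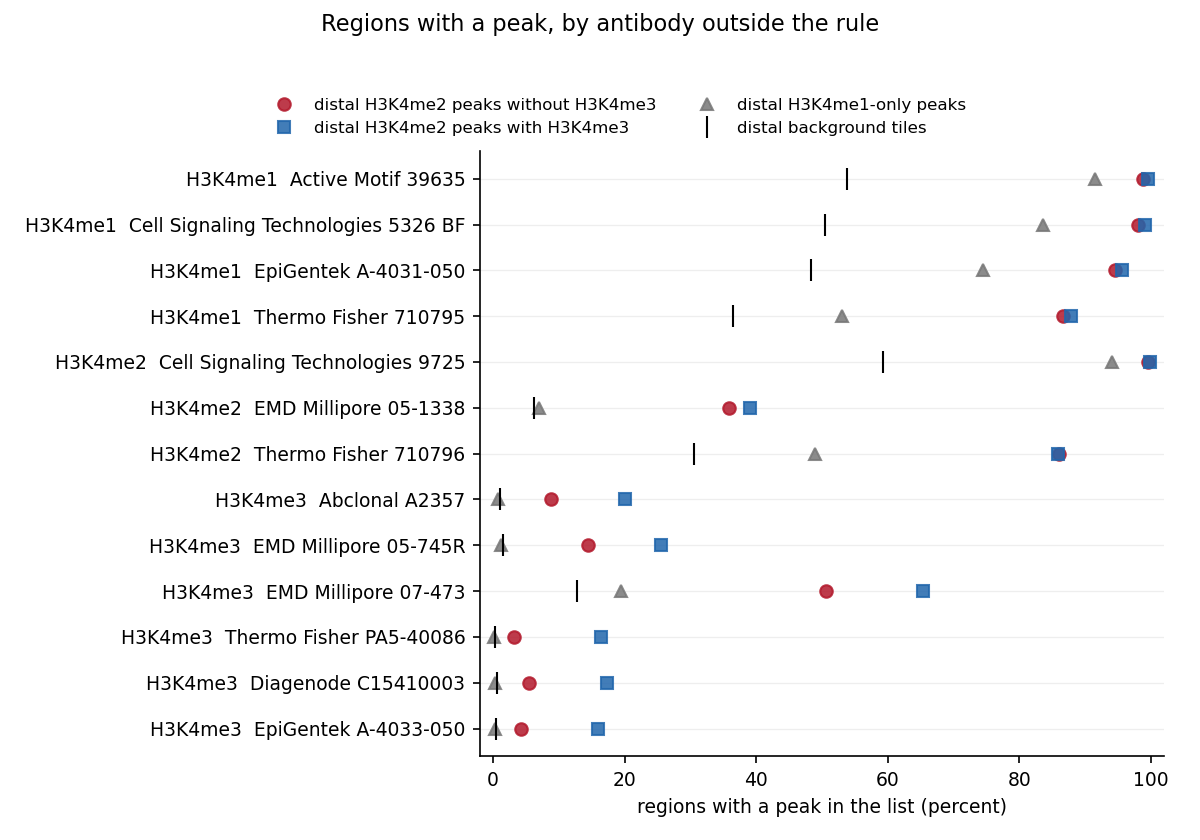
Share of regions with at least 1 base under a peak (percent, horizontal axis) for each of the 13 antibodies outside the rule. Circles are the 63698 distal H3K4me2 regions without corrected H3K4me3, squares the 2494 with it, triangles the 96411 distal H3K4me1-only peaks, and ticks the distal background tiles. H3K4me1 circles lie between 86.7% and 98.9%, and H3K4me3 circles between 3.12% and 50.5%, each to the left of its square.

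By target, 94.5% ± 5.57 of the regions had an H3K4me1 peak (SD, n = 4 antibodies), 73.9% ± 33.5 an H3K4me2 peak (n = 3) and 14.4% ± 18.2 an H3K4me3 peak (n = 6). The H3K4me3 mean was 7.17% ± 4.55 without EMD Millipore 07-473. The groups of H3K4me1 and H3K4me3 antibodies did not overlap, and their means differed by 80.1 percentage points (exact two-sided permutation p = 0.00952, the smallest possible, Benjamini-Hochberg adjusted p = 0.0703 over the 9 tests). H3K4me2 exceeded H3K4me3 by 59.5 points (exact permutation p = 0.0476, adjusted p = 0.0857), with EMD Millipore 05-1338 below EMD Millipore 07-473. H3K4me1 exceeded H3K4me2 by 20.7 points (exact permutation p = 0.457, adjusted p = 0.514), a design that cannot go below 0.0571. On the background tiles the means were 47.3% for H3K4me1, 32.0% for H3K4me2 and 2.74% for H3K4me3 lists. There too the H3K4me1 lists (36.5% to 53.9%) did not overlap the H3K4me3 lists (0.325% to 12.8%). The lack of overlap is thus not particular to the regions. None of the 9 tests passed the adjusted threshold of 0.05 and 5 had an unadjusted p under 0.05.

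Longer lists reach more regions, so the covered share of region bases was set against the covered share of the genome. The ratio cannot exceed the inverse of the covered genome share, which is 1.90 for Active Motif 39635 (ratio 1.79), 2.02 for Cell Signaling Technologies 9725 (1.91) and 2.67 for Cell Signaling Technologies 5326 BF (2.56), and at least 18.3 for each H3K4me3 list, so the longest lists read close to their limit and the marks cannot be ranked by it. H3K4me1 lists covered region bases 2.60 ± 0.638 times as densely as the genome (SD, n = 4), H3K4me2 lists 3.81 ± 1.67 times (n = 3) and H3K4me3 lists 3.07 ± 0.905 times (n = 6). H3K4me1 minus H3K4me3 was -0.22 on the log2 scale (exact permutation p = 0.410, adjusted p = 0.514), H3K4me2 minus H3K4me3 0.24 (exact permutation p = 0.571, adjusted p = 0.571) and H3K4me1 minus H3K4me2 -0.47 (exact permutation p = 0.343, adjusted p = 0.514). These values depended on region width. In the 23796 regions of 500 to under 1000 bases, a class chosen after seeing the data, the mean log2 ratio was 1.07 for H3K4me1 lists, 0.66 for H3K4me2 lists and -2.96 for H3K4me3 lists, a difference between H3K4me1 and H3K4me3 of 4.03 (exact permutation p = 0.00952, adjusted p = 0.0429).

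H3K4me3 was more frequent at wider regions. It was found in 3.44% ± 7.64 of regions of 500 to under 1000 bases (SD, n = 6 antibodies), in 10.9% ± 18.6 of those of 1000 to under 2000 bases, in 21.5% ± 28.0 of those of 2000 to under 5000 bases and in 38.8% ± 30.2 of those of at least 5000 bases. A wider region offers more bases to overlap. The share also followed the authors' H3K4me2 value, with the regions ranked by it and split into 4 classes of equal size. The mean share was 1.77% in the lowest class, 5.52% in the second, 13.0% in the third and 37.3% in the highest. Among regions of 500 to under 1000 bases alone it was 1.08%, 2.94%, 6.26% and 15.4% in the same classes. For EMD Millipore 07-473 the shares were 10.5%, 31.9%, 65.8% and 93.9%, and for Thermo Fisher PA5-40086 0.00628%, 0.0251%, 0.239% and 12.2%. All 6 antibodies had their highest share in the highest class. The regions with a peak in all 6 lists had a median width of 8203 bases and a median value of 25.0, and those in none had 840 bases and 9.17.

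**Figure D2:**
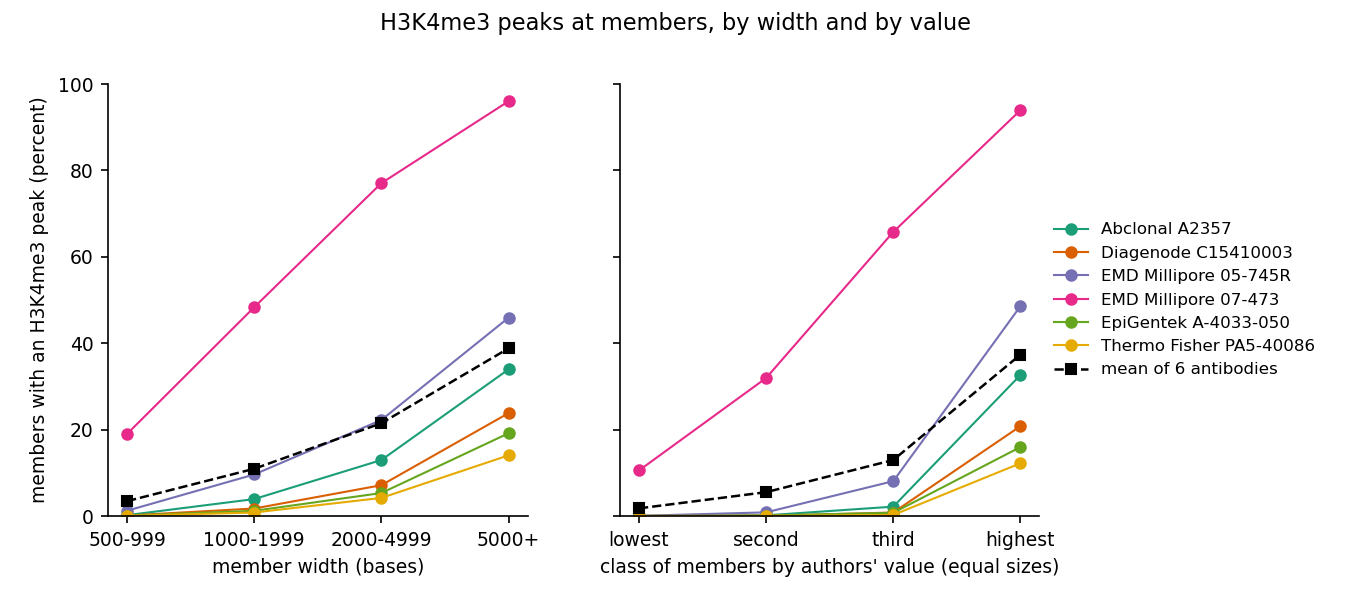
Share of distal H3K4me2 regions with an H3K4me3 peak (percent, vertical axis) by region width in bases (left) and by class of the authors' value (right), with 1 coloured line per antibody and the mean of 6 as black squares. The mean goes up with width to 38.8% and with value to 37.3%, with EMD Millipore 07-473 highest in every class.

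The H3K4me3 peaks inside the regions were low beside the peaks at TSS of the same list. In the list of Abclonal A2357, 6501 peaks in the regions had a median authors' value of 9.89 and 10183 peaks within 1 kb of a canonical coding TSS had 43.7. In that of EMD Millipore 05-745R the values were 9.46 in the regions, from peaks with a median width of 494 bases, and 38.3 at TSS, from peaks of 2199 bases, in that of EMD Millipore 07-473 8.10 and 35.7, and in that of Thermo Fisher PA5-40086 11.7 and 34.9. In these 4 lists the median peak in a region exceeded 30.0%, 34.3%, 57.9% and 20.7% of all peaks of its list, so that of EMD Millipore 07-473 lay above the middle of its list. The lists of Diagenode and EpiGentek hold no values, and their peaks had median widths of 465 and 399 bases in the regions and 2047 and 1986 bases at TSS. For H3K4me1 the gap was smaller, with medians of 11.5 in the regions and 18.0 at TSS for Cell Signaling Technologies 5326 BF, 10.7 and 18.9 for EpiGentek A-4031-050, and 10.2 and 16.9 for Thermo Fisher 710795. Active Motif 39635 had 25.9 and 27.7, from peaks whose median width was 38161 bases in the regions. For H3K4me2 the medians were 12.7 and 20.1 with Cell Signaling Technologies 9725, 9.13 and 20.3 with EMD Millipore 05-1338, and 9.49 and 25.3 with Thermo Fisher 710796.

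**Figure D3:**
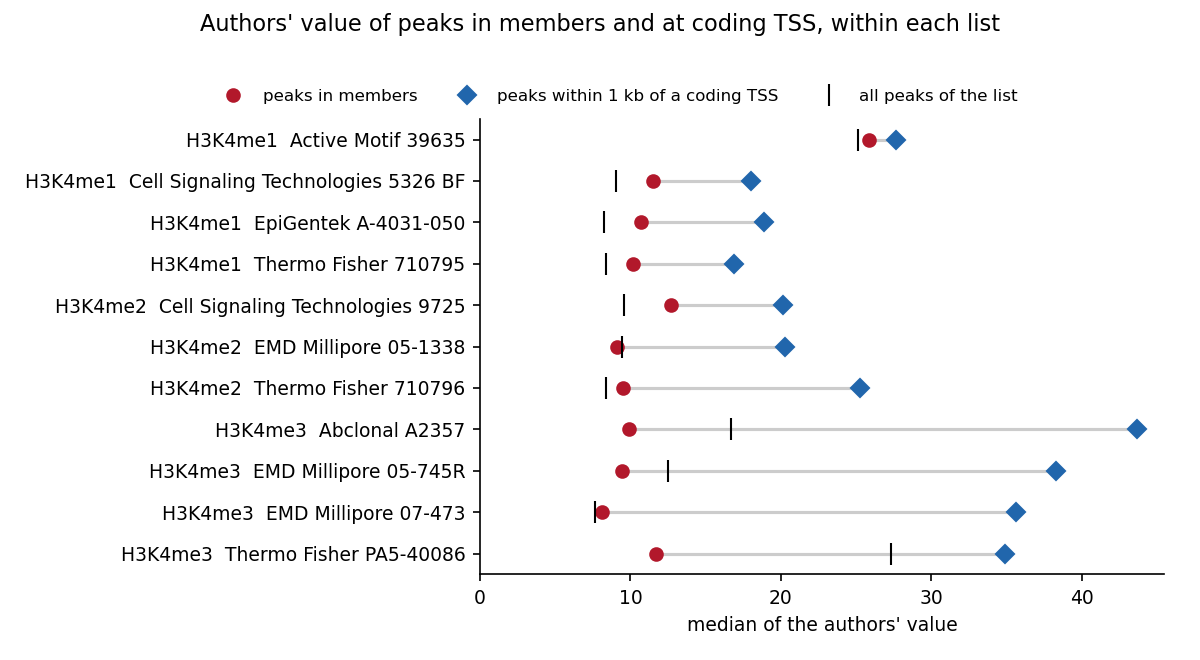
Median of the authors' value per peak (horizontal axis) within each of the 11 lists outside the rule that hold values, for peaks in the distal H3K4me2 regions (circles), peaks within 1 kb of a canonical coding TSS (diamonds) and all peaks of the list (ticks). In every list the circle lies left of the diamond, and the widest gap is that of Abclonal A2357, at 9.89 in the regions and 43.7 at TSS.

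Around the 40287 regions of under 2000 bases, all 3 marks were more frequent at the centre than nearby. The centre of the region lay under an H3K4me1 peak in 81.5% of regions on average over the 4 antibodies, against 69.2% at points 4 kb to either side. H3K4me2 gave 54.3% at the centre and 43.1% at the flanks, and H3K4me3 3.97% and 1.61%. The centre exceeded the flanks at 4 kb in every one of the 13 lists, by 1.40 points with the wide peaks of Active Motif 39635 and by 20.3 points with Thermo Fisher 710796. For H3K4me3 the gain was 11.1 points with EMD Millipore 07-473 and 0.0459 to 2.14 points with the other 5. At 6 kb the direction turned for 4 of the 6 H3K4me3 lists, with 0.209% at the centre and 0.608% at 6 kb for Thermo Fisher PA5-40086, 0.278% and 0.594% for EpiGentek A-4033-050, 0.464% and 0.725% for Diagenode C15410003, and 0.980% and 1.09% for Abclonal A2357. The 7 H3K4me1 and H3K4me2 lists were higher at the centre than at 6 kb too. The rule keeps protein-coding TSS more than 5 kb from the ends of a region. At the 66392 H3K4me1-only peaks of the same width, H3K4me3 antibodies averaged 0.577% at the centre and 0.591% at the flanks.

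**Figure D4:**
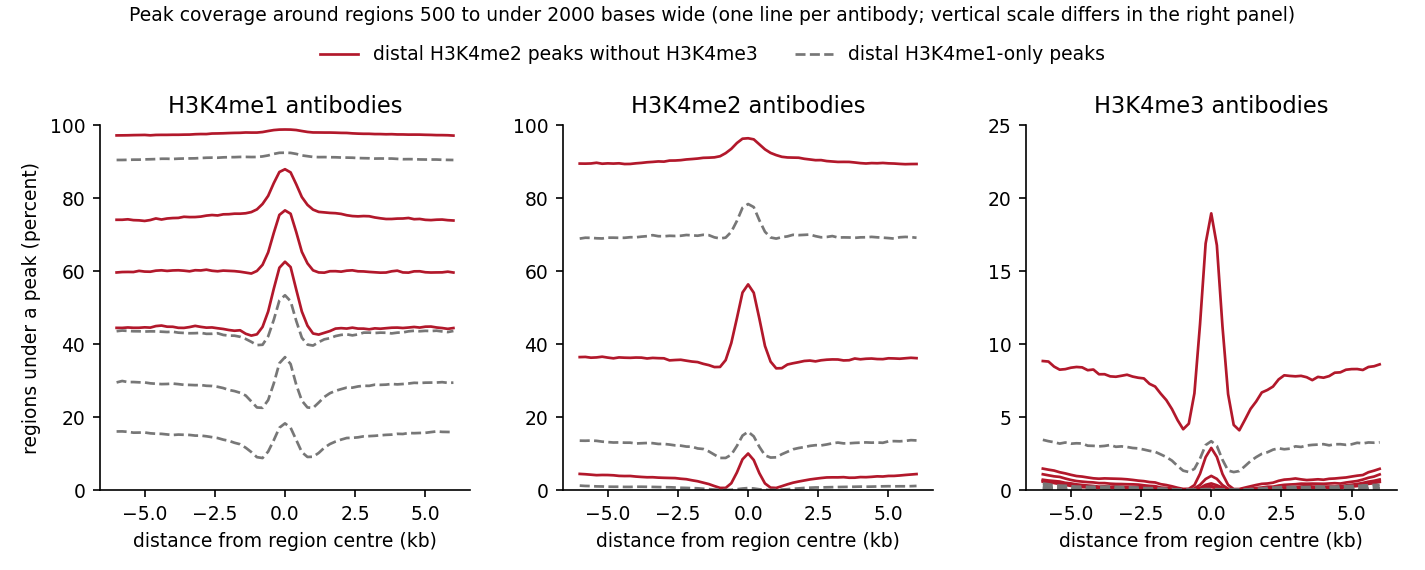
Percent of regions 500 to under 2000 bases wide that lie under a peak (vertical axis, with its own scale in the right panel) against distance from the region centre in kb, with 1 line per antibody outside the rule. Solid lines are the 40287 distal H3K4me2 regions and dashed lines the 66392 distal H3K4me1-only peaks. Every solid line is higher at the centre than on average 4 kb to either side, reaching 19.0% for EMD Millipore 07-473 in the right panel. In that panel 4 of the 6 solid lines are higher 6 kb away than at the centre.

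The regions were then set against the 2 kinds of peak most like them. The 2494 distal H3K4me2 peaks with a corrected H3K4me3 peak had H3K4me1 and H3K4me2 shares close to those of the regions, the widest gap being that of EMD Millipore 05-1338, in 35.9% of the regions and 39.1% of the H3K4me3-bearing peaks. H3K4me3 differed, being at 14.4% ± 18.2 of the regions and at 26.8% ± 19.3 of the H3K4me3-bearing peaks (SD, n = 6), lower in 6 of 6 antibodies (differences of -14.9 to -11.1 points). The mean difference was -12.4 points (exact sign-flip permutation p = 0.03125, the smallest possible, adjusted p = 0.0703). In regions of 500 to under 1000 bases it was -2.33 points (exact permutation p = 0.188, adjusted p = 0.241). Against 96411 distal H3K4me1 peaks that overlap no corrected H3K4me2 or H3K4me3 peak the order was the other way. H3K4me3 was at 14.4% of the regions and at 3.69% ± 7.74 of the H3K4me1-only peaks, higher in 6 of 6 antibodies by 2.93 to 31.1 points. The mean difference was 10.7 points (exact sign-flip permutation p = 0.03125, adjusted p = 0.0703), and 6.64 points without EMD Millipore 07-473. Over all widths, distal H3K4me2 regions thus lay between both kinds of peak in H3K4me3 in each of the 6 lists. At 500 to under 1000 bases the means were 3.44% in the regions, 5.77% in H3K4me3-bearing and 0.862% in H3K4me1-only peaks. The order could not be judged there in every list, as only 843 H3K4me3-bearing peaks have this width. Thermo Fisher PA5-40086 had 0.0378% in the regions and 0% in H3K4me3-bearing peaks, too few to give an order. EMD Millipore 07-473 had 19.0% and 32.7%. The H3K4me1 antibodies also reached the regions of all widths more often, at 94.5% against 75.7% ± 16.6 of H3K4me1-only peaks (SD, n = 4), as did the H3K4me2 antibodies, at 73.9% against 50.0% ± 43.5 (n = 3).

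By their middle, 43.7% of the regions lay in an intron of a protein-coding gene, 36.2% outside genes, 16.7% in a non-coding gene and 3.43% in an exon of a protein-coding gene. The same shares were 35.6%, 43.7%, 16.3% and 4.33% for H3K4me3-bearing peaks and 43.3%, 36.9%, 16.9% and 2.88% for H3K4me1-only peaks. The regions were thus close to H3K4me1-only peaks in these shares and more often intronic than H3K4me3-bearing peaks. The median distance to a protein-coding TSS was 38.2 kb for the regions, 28.8 kb for the H3K4me3-bearing peaks, 64.2 kb for the H3K4me1-only peaks and 78.7 kb for the tiles.

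The rule removed starts of protein-coding genes only, and 3795 regions (5.96%) hold the TSS of a non-coding gene. Non-coding here means any gene that GENCODE does not class as protein-coding, which takes in pseudogenes as well as long non-coding RNAs. H3K4me3 was at 37.8% ± 24.3 of these and at 12.9% ± 17.8 of the other 59903 (SD, n = 6), higher in 6 of 6 antibodies by 16.5 to 35.1 points. The mean difference was 24.9 points (exact sign-flip permutation p = 0.03125, adjusted p = 0.0703). Regions over a non-coding TSS were also wider, with a median of 4144 bases against 1293. Within width classes the shares were 6.95% and 3.38% at 500 to under 1000 bases, 21.8% and 10.5% at 1000 to under 2000, 34.1% and 20.4% at 2000 to under 5000, and 53.8% and 35.3% above that, so the order held in every class. Of the regions with a peak in all 6 H3K4me3 lists 39.1% hold a non-coding TSS, and of those with none 1.98% do.

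The regions were spread unevenly over chromosomes. Chromosome 7 had 54.7 regions per Mb, chromosome 1 49.1 and chromosome 6 45.3, against 21.9 over all. Chromosome X had 0.232 (36 regions), chromosome 14 1.00 (91 regions) and chromosome 13 3.59 (352 regions). The H3K4me1-only peaks were also sparse on X (2.67 per Mb), 14 (6.85) and 13 (7.05), and no copy number was measured here. Chromosome 5 had 19.3 regions per Mb and 48.9 H3K4me1-only peaks per Mb, while chromosome 1 had 49.1 and 48.2.

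**Figure D5:**
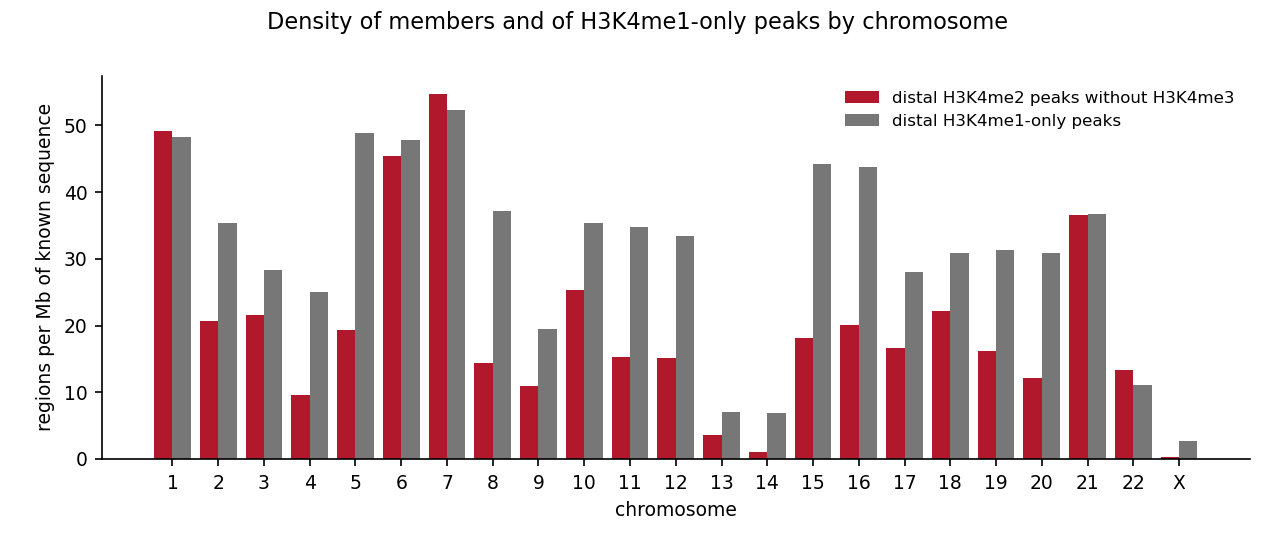
Number of distal H3K4me2 regions (red, left bar of each pair) and of distal H3K4me1-only peaks (grey) per Mb of known sequence on each chromosome. The regions reach 54.7 per Mb on chromosome 7 and 0.232 on X.

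The regions occurred in groups. Joined at gaps of up to 10 kb they form 23798 groups, of which 12761 hold a single region and 963 hold at least 10, and 26.1% of all regions lie in these larger groups. Beside the centromeric region of chromosome 16, the group with the most bases spans the TSS of CITED2, a transcriptional coregulator that binds CBP and p300, at chr6:139361070-140028093, with 86 regions and 568.3 kb. The next lie near JARID2, a partner of Polycomb repressive complex 2 (chr6:14708963-15237659, 76 regions, 466.1 kb), between DTNBP1 and MYLIP (chr6:15674161-16119631, 52 regions, 400.6 kb) and between the TSS of MYO3B and SP5 (chr2:170186007-170622282, 60 regions, 371.3 kb). Of the 86 regions around CITED2, 45 had a peak in at least 1 of the 6 H3K4me3 lists (52.3%), as did 45 of 76 (59.2%), 37 of 52 (71.2%) and 41 of 60 (68.3%) in the other 3, against 50.6% of all regions.

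By nearest canonical TSS, 9255 protein-coding genes were nearest to at least 1 region, with a median of 3 regions each. The genes nearest to the most regions were GPC5 (199), LRRN3 (175), REEP3 (170), ZNF521 (149), KCND2 (148), LRGUK (138), KCNT2 (134), CITED2 (132), ADCYAP1 (132) and EDEM1 (130). GPC5 encodes a glypican, a cell-surface proteoglycan, KCND2 and KCNT2 encode potassium channels, and ZNF521 encodes a zinc finger factor of early blood and neural cells. GPC5 lies on chromosome 13, which had 352 regions in all. The density of genes around the listed genes was not measured. Their regions lie up to 1603 kb away for GPC5, 1218 kb for LRRN3 and 1706 kb for KCNT2. The median authors' value of these regions was 6.35 for GPC5 and 11.1 for KCNT2.

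Genes of the red cell lineage were examined with lists of known genes, chosen with earlier results of these data known. Of all 19970 protein-coding genes, 70.9% had at least 1 region within 100 kb of the canonical TSS, with a median of 3. Of 17 erythroid transcription factor genes 15 had one (88.2%, median 5), and of 36 genes for haemoglobin, haem synthesis, iron uptake and red cell membrane 30 had one (83.3%, median 3). Neighbouring genes are counted separately though they can share regions, and HBB, HBD, HBE1, HBG1 and HBG2 each had 4 regions with 22.9 kb. In the lists of other lineages a region lay near 14 of 15 myeloid (93.3%), 17 of 20 lymphoid, 13 of 15 megakaryocyte (86.7%), 14 of 18 liver (77.8%) and 13 of 19 neural genes (68.4%). Of 17 housekeeping genes 14 had one (82.4%), and of 20 genes of BCR-ABL1 signalling and survival 17 did. By share, both erythroid lists lay below the myeloid list and above the housekeeping, liver and neural lists. The effectors also lay below the megakaryocyte, lymphoid and signalling lists. Within 50 kb the factors (76.5%) and effectors (66.7%) both lay below the housekeeping list (82.4%), and the effectors were level with the liver list (66.7%). Within 100 kb the order by median was different from that by share. Medians were 7 for housekeeping, 6.5 for signalling and survival and 5.5 for liver genes, each above both erythroid lists. They were 5 for lymphoid, 4 for myeloid, 3 for megakaryocyte and 2 for neural genes.

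Among the erythroid factors, RUNX1, a runt factor needed to form blood stem cells, had 21 regions within 100 kb (169 kb of region), IKZF1, the Ikaros factor, had 15 (54.1 kb) and LMO2, the bridging subunit of the TAL1 and GATA1 complex, had 13 (96.3 kb). GATA1, the main factor of red cell genes, had 0, on a chromosome with 36 regions in all. Among the effectors KEL, the Kell blood group antigen, had 24, UROD, an enzyme of haem synthesis, had 19 and RHAG, a membrane protein of the Rh complex, had 16, while ALAS2, the first enzyme of red cell haem synthesis, which also lies on X, had 0. ABL1 had 40 and BCR 21, the partners of the fusion gene that drives the leukaemia from which K562 was grown. Of megakaryocyte genes, GP1BB, a platelet receptor subunit, had 32, and the neighbouring platelet chemokine genes PPBP and PF4 had 16 each, and GP1BA, of the same receptor, had 0. CRKL, an adaptor of BCR-ABL1 signalling, had 19. Of lymphoid genes the T cell gene CD2 had 25, and the T cell kinase gene ZAP70 and the interleukin receptor gene IL7R had 10 each. Of neural genes GAD1, which makes the neurotransmitter GABA, had 31, OLIG2, an oligodendrocyte factor, had 13 and SLC17A7, a glutamate transporter, had 8. Of liver genes the enzyme gene CYP3A4 had 27, and AHSG and TTR, which encode plasma proteins, had 12 and 11. The most for myeloid genes were 14 at CSF3R, 9 at CD14 and 8 at LYZ, and for housekeeping genes 18 at YWHAZ and 16 each at GUSB and TBP. The first in the alphabet with 0 were CTSG among myeloid genes, BCL11B among lymphoid, DCX among neural, APOB among liver, CCND2 among signalling and GAPDH among housekeeping genes.

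The region nearest to each of 9 genes of blood cells showed how much the H3K4me3 lists varied over single loci. The region in NPRL3, a gene beside the α-globin cluster, chr16:112596-116125, is 3530 bases wide with a value of 23.3 and held a peak in 4 of 4 H3K4me1, 3 of 3 H3K4me2 and 2 of 6 H3K4me3 lists. Those 2 were EMD Millipore 07-473 and Diagenode C15410003. The region nearest to HBE1, the embryonic β-like globin gene, lies 8.59 kb downstream of its TSS, towards HBG2, at chr11:5260764-5261944, with a value of 15.0 and a peak in 4, 2 and 0 lists. Near TAL1 the region lies 15.4 kb upstream, at chr1:47246584-47248689, with a value of 10.9 and a peak in 4, 2 and 0 lists.

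The region nearest to TFRC, through whose product red cell precursors take up iron, lies 11.4 kb upstream, at chr3:196088054-196098866. It is 10813 bases wide with a value of 15.0, and was in 4 H3K4me1, 3 H3K4me2 and 1 H3K4me3 list, that of EMD Millipore 07-473. Near BCL11A, the repressor of fetal globin, it lies 28.1 kb upstream, at chr2:60580901-60582608, in 4, 3 and 2 lists. The region nearest to GATA2 lies 78.4 kb downstream, at chr3:128408027-128421665, with a value of 36.2 and a peak in 4, 3 and 4 lists. The regions nearest to LMO2 (chr11:33876294-33901937, 25644 bases) and MYB, a factor of blood progenitors (chr6:135167078-135196469, 29392 bases), hold the TSS of those genes inside and had a peak in all 13 lists. For GATA1 the nearest region lies 132 kb upstream, at chrX:48654135-48655499, in 3, 3 and 2 lists. Loci of this kind therefore run from 0 of 6 H3K4me3 lists at HBE1 and TAL1 to 6 of 6 at LMO2 and MYB.

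As a check of the cell type, the promoters of TAL1, KLF1, HBG1, HBG2, HBE1 and TFRC held a peak in all 13 lists, LMO2 in 12, GATA1 in 12 and EPOR in 10. Of genes of other cell types, GRIN2B and SERPINA1 were at 0 of 13, PAX5 and SNAP25 at 1, and CD3D was at 13.

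The 10 widest regions, the centromeric one aside, measured 50.4 to 77.9 kb. The widest of these, chr6:146853939-146931792 in a non-coding gene near ADGB, had a value of 27.4 and a peak in all 13 lists. The region chr4:10307493-10372630 near ZNF518B is 65.1 kb wide and had 1 of 6 H3K4me3 lists, and the other 8 had 3 to 6. Of the 5 regions with the highest authors' value, 54.8 to 67.8, 4 had a peak in all 6 H3K4me3 lists and 1 in 5. The highest, chr5:139787552-139788141 near PSD2, is 590 bases wide and lies 7.96 kb from a TSS. At the other end, 700 regions (1.10%) had a peak in all 7 H3K4me1 and H3K4me2 lists and in none of the 6 H3K4me3 lists.

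Sequence was compared in the central 300 bases of each region, beside H3K4me3-bearing peaks, H3K4me1-only peaks, tiles and 34961 RefSeq promoters of GRCh38.p14. Median GC content was 43.3% in the regions, 46.0% in H3K4me3-bearing peaks, 42.7% in H3K4me1-only peaks, 39.3% in tiles and 58.7% in promoters. Windows whose CpG count exceeded 0.6 of that expected from their C and G made up 3.42%, 8.82%, 1.72%, 2.45% and 48.9% in the same order. Of regions in none of the 6 H3K4me3 lists 1.17% had such a window, and of those in all 6 16.8% did.

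The GATA letters AGATAA or TGATAA, on either strand, were in 32.5% of the regions, 26.4% of H3K4me3-bearing peaks, 33.6% of H3K4me1-only peaks, 34.9% of tiles and 16.3% of promoters. They were thus not more frequent in the regions than in the tiles. The same letters in reverse order, AATAGA or AATAGT, which have the same base composition, were in 28.5%, 25.6%, 29.7%, 34.0% and 14.5% of the same sets. The part of base composition in these shares was not tested. Among windows of 40 to 50% GC the GATA letters were in 30.3% of the regions, 30.7% of H3K4me1-only peaks and 27.6% of tiles, and the reversed letters in 25.1%, 25.4% and 25.4%. Of regions in none of the 6 H3K4me3 lists 33.2% had the GATA letters and 30.5% the reversed letters. Of those in all 6 lists 26.9% and 25.9% did. The composite that TAL1 and GATA1 complexes bind, CTG, then 9 bases of any kind, then GATAA, which overlaps the GATA letters, was, on either strand, in 1.19% of the regions and 0.987% of tiles, and TGANTCA in 11.0% and 9.26%.

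The letters CCGGAA, of the core bound by ETS factors, were in 2.96% of the regions, 3.45% of H3K4me3-bearing peaks, 2.20% of H3K4me1-only peaks, 1.71% of tiles and 17.3% of promoters. They were more frequent in the regions than in H3K4me1-only peaks on 21 of 22 chromosomes with at least 50 regions. CCNCACCC, letters that KLF factors bind, were in 8.13%, 9.86%, 7.57%, 6.35% and 18.4% of the same sets. Among windows of 40 to 50% GC the order against tiles turned, with 8.25% of the regions, 8.13% of H3K4me1-only peaks and 8.78% of tiles, and for CCGGAA the shares were 2.74%, 2.28% and 1.96%. Both kinds of letters hold many C and G, as promoters do. Among regions in all 6 H3K4me3 lists CCGGAA was in 4.95% and CCNCACCC in 12.8%, against 2.31% and 6.97% of regions in none.

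The lists for H3K9me3 and H3K27me3, marks of silent chromatin, had a peak in 100% and 98.4% of the regions. These lists cover 2834 and 2029 Mb, and 97.5% and 70.2% of tiles hold a peak, so they say little about single regions.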

How the data were processed

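Peak lists of 13 antibodies outside the rule, of the 4 Abcam source antibodies, of H3K9me3 and of H3K27me3, and the 3 corrected lists, 22 in all, were read as deposited. Per the submitters' processing notes, MACS2, Bowtie2, bedtools and SAMtools were used on GRCh38 (hg38). Versions, calling settings and the high-confidence rule: not given in the sources used here. The deposited signal value of each peak has no header. It is read here as a calibrated modification density and was compared only within a list. Other files hold deposited positions without values (H3K9me3, H3K27me3, EpiGentek A-4033-050, Abcam ab8580 and Diagenode C15410003). The depth of peak lists is unknown and no counting error could be given, and a region without a listed peak is not shown to lack a mark.

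Regions, comparison sets and tiles were built from GENCODE release 44 with Python 3.11.15, NumPy 2.4.6 and pandas 2.3.3, and overlaps were checked against bedtools 2.31.1. Tiles were windows of 1368 bases over 5 kb from a protein-coding TSS and without unknown bases. Overlap of 1 base was enough for a region to hold a peak. Each antibody gave 1 value, and the smallest p is 0.00952 for 4 against 6 antibodies, 0.0238 for 3 against 6, 0.0571 for 4 against 3 and 0.03125 for 6 sign-flips. The p-values reflect how far antibodies differ within one cell line and were adjusted by Benjamini-Hochberg over 9 tests, and the code was tested on simulated data. With these sizes the sign-flip tests pass an adjusted 0.05 only if most of the 9 tests reach their smallest p. Counts over regions, genes, groups and letters are descriptions with no test. Promoter checks used 1 kb either side of the canonical TSS.

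The regions, gene lists and tests were chosen with earlier results of these data known. Genes were named by rule: from each list the 3 with the most regions within 100 kb and the first in the alphabet with none, and the 10 genes nearest to the most regions. Regions named were the 10 widest, the 5 highest in value, the 5 groups with the most bases and the one nearest to each of 9 blood cell genes. Printed sequences were read from hg38. Some windows and a promoter check are not reported here.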

Additional observations from a re-analysis of the deposited data

Results flagged for a closer look

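EMD Millipore 07-473 stood apart from the other H3K4me3 antibodies on 2 measures. It had a peak in 50.5% of the distal H3K4me2 regions, and the next highest of the 6 antibodies had one in 14.4%. Its excess over distal H3K4me1-only peaks was 31.1 percentage points, and the next highest was 13.1. Its list holds 233923 peaks, and the other 5 hold 13311 to 33922. Of 10 groups of values examined in this way, chance would put about 1 in 20 apart.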

How the results depend on the processing

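Each of the 9 comparisons was recomputed under the alternatives, 192 values in all, of which 179 kept their direction and their side of the threshold. With the Abcam source antibodies included 4 comparisons passed, each with exact permutation adjusted p = 0.0176. The regions and both comparison sets were chosen on lists derived from these antibodies, so this setting cannot test the marks at the regions. H3K4me1 minus H3K4me3 was 72.6 points. H3K4me3 at the regions was -11.6 points against H3K4me3-bearing peaks and 10.5 points against H3K4me1-only peaks. H3K4me3 over minus off non-coding TSS was 21.2 points. Regions of 500 to under 1000 bases, chosen after seeing the data, gave 84.3 points for H3K4me1 minus H3K4me3 (exact permutation adjusted p = 0.0429).

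The log2 coverage differences changed sign most, and the cause was not tested. H3K4me1 minus H3K4me3 became 0.10 beyond 10 kb, 0.14 with TSS of every annotated gene, 0.48 with the upper-valued peaks of each list alone, and, added later, 4.03 at 500 to under 1000 bases and 0.12 without regions that hold a protein-coding TSS. H3K4me1 minus H3K4me2 became 0.41 at 500 to under 1000 bases. H3K4me2 minus H3K4me3 became -0.20 with 8-cycle libraries, and -0.020 to 0.68 with 1 antibody left out, the lowest without EMD Millipore 05-1338.

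Shares of regions with a peak kept their sign with any 1 antibody left out. H3K4me1 minus H3K4me3 ranged from 77.9 to 87.4 points, H3K4me2 minus H3K4me3 from 46.6 (without Cell Signaling Technologies 9725) to 78.4 (without EMD Millipore 05-1338), and H3K4me1 minus H3K4me2 from 1.71 (without EMD Millipore 05-1338) to 33.5 points. H3K4me3 at the regions minus H3K4me1-only peaks was 6.64 points without EMD Millipore 07-473. Requiring 0.5 of a region to be covered left 4.07 points between regions over and off non-coding TSS. The share of list genes with a region nearby moved beyond its exact 95% binomial interval for 1 of 9 lists at 50 kb, the erythroid effectors, with 66.7% against 59.5% of all genes. With letters counted per kb of whole region, the ratio of the regions to H3K4me1-only peaks moved beyond the interval for 14 of 15 letter sets, and the order turned round for 10 of 15, among them the GATA letters (1.44 in the regions and 1.43 in H3K4me1-only peaks) and CCNCACCC (0.291 and 0.293), but not CCGGAA (0.0861 and 0.0770). No paired analysis was possible because the labels give no replicate number that links antibodies of different targets, apart from the 3 sign-flip tests, which pair 2 sets of regions within an antibody.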
